A study of Mus musculus with 32 samples.

Results

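The response of megakaryocyte and erythroid progenitors (MEP cells) to deletion of the activated Janus kinase gene, sampled at day 3, was set against their response to the JAK1 and JAK2 inhibitor ruxolitinib. Members were 13 of the 32 RNA sequencing libraries of the series, and the features compared were the 7847 of 33924 genes whose mean over these libraries was at least 10 CPM (counts scaled to a library total of 1e6). All 13 carry the genotype Jak2v617f, activated ex vivo with Dre mRNA before transplantation into lethally irradiated recipients, so the sorted cells may include host cells that survived irradiation. The deletion arm, batch A, had 4 tamoxifen libraries labelled day 3 and 3 vehicle libraries (vehicle A). The inhibitor arm, batch C, had 3 ruxolitinib libraries labelled day 7 and 3 vehicle libraries (vehicle C). Both vehicle groups are labelled day 0. The 4 groups include no mice given tamoxifen without a deletable allele, so deletion and tamoxifen itself cannot be told apart. The sources used here give no animal ages.

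Each response was taken against vehicle of its own batch, and the quantity tested was the deletion response minus the ruxolitinib response. It is called the difference below, on the log2 scale, with a standard error (SE). A positive difference means that the deletion response was the higher. A gene was called at an adjusted p under 0.05 in edgeR's quasi-likelihood test with Benjamini-Hochberg adjustment over all 7847 genes. The test takes the 13 libraries as independent, although vehicle A and vehicle C libraries share numbers in their labels. Each adjusted p below is from that test unless day 7, another fit, another filter or a left-out library is named. The arms differ in batch, duration and agent together, and these cannot be told apart. Tamoxifen day 7 values are therefore given beside some results. They come from a fit of 16 MEP libraries and share the vehicle A libraries with day 3.

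JAK2 is the tyrosine kinase bound to the erythropoietin and thrombopoietin receptors, and it phosphorylates STAT5, which enters the nucleus and induces genes such as Cish and Osm. JAK1 serves the type I interferon receptor together with TYK2, and their signal leads STAT2 and IRF9 to interferon-stimulated response elements. Ruxolitinib blocks the catalytic site of JAK1 and JAK2 in every cell type, whereas the recombination removes the mutant Jak2 allele alone. MEP cells give rise to red cell precursors and megakaryocytes, and in myeloproliferative neoplasms their expansion depends on JAK2 signalling.

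Total counts, in units of 1e6, were 21 to 27.1 at tamoxifen day 3, 20.7 to 24.1 in vehicle A, 40.3 to 55.5 under ruxolitinib and 34.4 to 39.7 in vehicle C. A given CPM thus rests on more counts in the inhibitor arm. Yet the ruxolitinib libraries had any count on only 55.6 to 72.8% of the genes in the file, against 82.1 to 89.8% in vehicle C. This share was 84.8 to 88.5% at tamoxifen day 3 and 85.2 to 88.1% in vehicle A. The summed level of 7 MEP and erythroid progenitor markers was 9120 to 10500 CPM at tamoxifen day 3 and 7360 to 9560 CPM in vehicle A. It was 8310 to 10400 CPM under ruxolitinib and 8450 to 8950 CPM in vehicle C, and none of the 7 was at 0 in any group. Car1 was the largest member, and single members moved in opposite directions. In the same order of groups, Klf1 averaged 511, 72.1, 898 and 411 CPM and Tfrc 513, 2720, 576 and 2030 CPM. Gata1 averaged 669, 666, 658 and 736 CPM. The sum thus does not describe each marker, and Klf1 differed between the vehicle groups. Jak2 itself does not check the labels, as a gene count does not separate the mutant from the wild-type allele. Jak2 had 18.7 ± 3.39 CPM at tamoxifen day 3 and 17.1 ± 1.5 CPM in vehicle A, against 15.3 ± 5.67 CPM under ruxolitinib and 23.8 ± 7.62 CPM in vehicle C (SD, n = 4, 3, 3 and 3). Its difference was 0.67 ± 0.38 (SE, adjusted p = 0.327). These are bulk samples, in which fewer cells of a type and less RNA per cell cannot be told apart.

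The deletion and ruxolitinib responses differed in 389 genes, 4.96% of those tested. The deletion response was the higher in 282 (3.59%) and the lower in 107 (1.36%). Taken singly, 554 genes were called at tamoxifen day 3 (7.06%) and 794 under ruxolitinib (10.1%). At day 3, 311 genes rose (3.96%) and 243 fell (3.1%), while 204 rose (2.6%) and 590 fell (7.52%) under ruxolitinib. Of the 282 higher genes, 212 fell under ruxolitinib without a call at day 3, 28 rose at day 3 without a call under ruxolitinib, and 14 rose at day 3 and fell under ruxolitinib. Of the 107 lower genes, 34 rose under ruxolitinib alone, 44 fell at day 3 alone, and 5 fell at day 3 and rose under ruxolitinib. Beside these, 50 genes rose in both arms (0.637%) and 53 fell in both (0.675%), and Gm17004 and Podxl were among the 3 of these 103 with a called difference. With the number shared by vehicle A and vehicle C libraries as a random block in limma voom, 864 genes were called. Leaving out a library gave 118 calls (without ruxolitinib replicate 2) to 515 (without vehicle C replicate 3), and 183 to 229 without any library of vehicle A, without tamoxifen replicate 2, 3 or 4 or without ruxolitinib replicate 1.

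**Figure D1:**
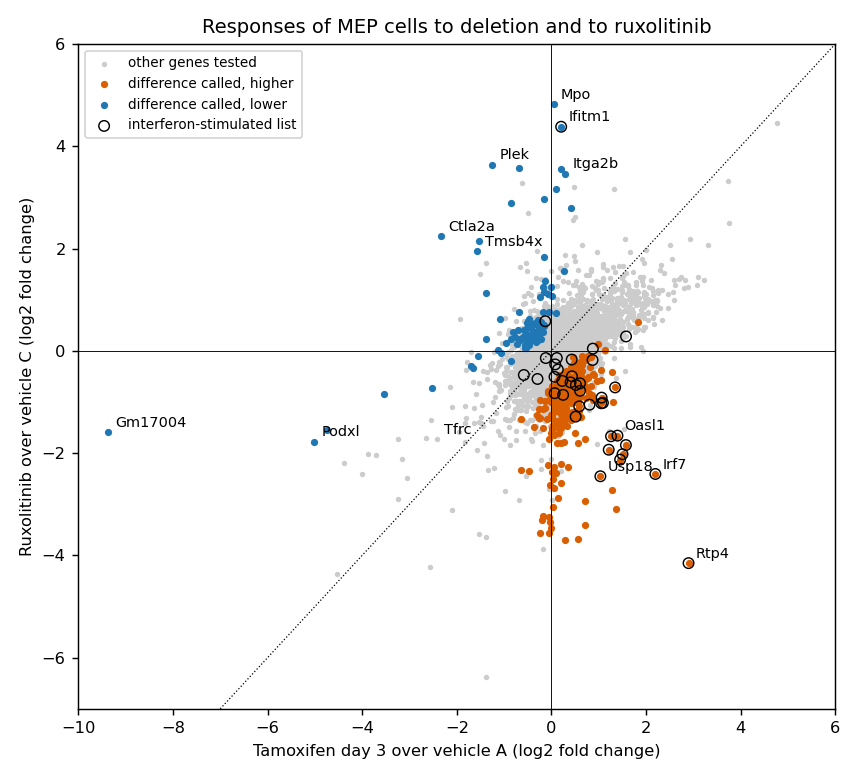
Each point is a gene, placed by its log2 fold change at tamoxifen day 3 over vehicle A (x) and under ruxolitinib over vehicle C (y). Orange and blue points are the 282 genes called higher and the 107 called lower for the difference, open circles are the 37 tested interferon-stimulated genes, the dotted line marks equal responses, and 1 gene lies outside the axes; the circled genes lie mostly at the lower right.

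Interferon-stimulated genes moved in opposite directions in the 2 arms. Of 56 genes on the type I interferon-stimulated list, 37 passed the CPM minimum. The difference was called higher for 16 of these 37 (43.2%, against 3.59% of all genes tested) and lower for 1, Ifitm1; voom called 25 higher. Taken singly, 12 rose at tamoxifen day 3 (3.96% of all genes rose), and 1 rose and 15 fell under ruxolitinib (2.6% and 7.52% of all genes). The day 3 count was 5 without tamoxifen replicate 2 or vehicle A replicate 3, 7 without tamoxifen replicate 4, and 8 without tamoxifen replicate 3 or vehicle A replicate 2 and with the replicate block. It was 18 without vehicle C replicate 3 and in DESeq2. The count of falls under ruxolitinib was 7 without ruxolitinib replicate 2. Rsad2, Rtp4, Xaf1, Oas3 and Ddx58 passed the CPM minimum only through the tamoxifen libraries, and Ifitm1 only through those of ruxolitinib. The median log2 change of the 37 was 0.605 at tamoxifen day 3 and -0.716 under ruxolitinib, beside -0.0085 and -0.00198 over all genes. The sign was positive at day 3 and negative under ruxolitinib in 30 of 37 (81.1%), a pattern shown by 22.1% of all genes. The list was chosen with earlier results of these data known, so its counts are a description.

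Irf7, the interferon regulatory factor that amplifies interferon production, had 69.2, 140, 153 and 119 CPM in the tamoxifen day 3 libraries, against 31.1, 22.7 and 24 CPM in vehicle A. It had 4.84, 3.46 and 6.06 CPM under ruxolitinib, against 35.1, 25.9 and 20.2 CPM in vehicle C. Every tamoxifen library was above every vehicle A library, every ruxolitinib library was below every vehicle C library, and the vehicle groups overlapped. The difference was 4.61 ± 0.41 (SE, adjusted p = 2e-04), made up of a rise of 2.20 ± 0.28 at day 3 (adjusted p = 0.000939) and a log2 change of -2.41 ± 0.30 under ruxolitinib (adjusted p = 0.000955).

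Rtp4, an interferon-induced chaperone of receptor transport, showed the largest positive difference of all called genes that carry a gene name, 7.05 ± 0.996 (SE, adjusted p = 0.00309). It had 16.5, 68.2, 65.4 and 39 CPM at tamoxifen day 3, against 10.5, 2.95 and 5.4 CPM in vehicle A. It had 0.0436, 0.361 and 0.497 CPM under ruxolitinib, against 8.64, 2.63 and 6 CPM in vehicle C. The groups of each arm did not overlap, and the ruxolitinib libraries were the lowest.

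Oasl1, a 2',5'-oligoadenylate synthetase-like protein, had 66.3, 83.2, 105 and 98.8 CPM at tamoxifen day 3, against 37.5, 28 and 33.9 CPM in vehicle A. Under ruxolitinib it had 13.1, 9.32 and 8.54 CPM, against 41.7, 34.6 and 28.7 CPM in vehicle C. Neither arm overlapped its vehicle, and the difference was 3.05 ± 0.31 (SE, adjusted p = 0.000361). Rsad2, which encodes the antiviral enzyme viperin, had 13.3, 24.2, 29.3 and 27.7 CPM at tamoxifen day 3, against 7.83, 8.35 and 8.48 CPM in vehicle A. It had 1.35, 0.973 and 1.89 CPM under ruxolitinib, against 6.43, 7.03 and 4.66 CPM in vehicle C. Its difference was 3.52 ± 0.43 (SE, adjusted p = 0.00186), again with no overlap in either arm.

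Dhx58, which encodes the RNA sensor LGP2, and Xaf1, an interferon-induced partner of the apoptosis inhibitor XIAP, followed the same order, with differences of 3.15 ± 0.41 and 3.42 ± 0.50 (SE, adjusted p = 0.00209 and 0.00377). Dhx58 averaged 47 ± 13.6 CPM at tamoxifen day 3 and 20 ± 3.15 CPM in vehicle A, and 4.42 ± 1.72 CPM under ruxolitinib and 17.9 ± 4.27 CPM in vehicle C (SD, n = 4, 3, 3 and 3). Usp18, the protease that removes ISG15 from proteins and restrains the interferon receptor, was called under ruxolitinib and just missed the threshold at day 3. Its log2 changes were -2.45 ± 0.32 under ruxolitinib and 1.03 ± 0.29 at day 3 (SE, day 3 adjusted p = 0.0501). It had 37.7, 77, 78 and 78.8 CPM at tamoxifen day 3, against 34.4, 41.1 and 22.3 CPM in vehicle A, and these overlapped. Under ruxolitinib it had 4.42, 5.41 and 6.53 CPM, against 37.6, 35.5 and 22.5 CPM in vehicle C. Its difference was 3.49 ± 0.43 (SE, adjusted p = 0.00186).

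The other called members were Oas3 and Oas1a, synthetases that activate RNase L, with differences of 3.58 and 2.93; Parp9 and Parp14, ADP-ribosyltransferases, with 2.08 and 1.80; and Irf9, which binds DNA together with STAT2, with 1.67. Trim30a had a difference of 2.06. The RNA sensors Ddx58 and Ifih1 had 1.98 and 1.39, and Eif2ak2, the double-stranded RNA kinase PKR, had 1.11. Each of these was called for the difference, and Parp9 and Ifih1 were called in both single responses. Parp14, Eif2ak2, Ddx58 and Trim30a lost the call without ruxolitinib replicate 2, and the last 3 also without vehicle A replicate 2 or 3 or ruxolitinib replicate 1. Ddx58 and Trim30a lost it without tamoxifen replicates 3 or 4 as well, and Trim30a also without tamoxifen replicate 2. The highest adjusted p of these 4 genes over all alternatives was 0.0994, for Eif2ak2. Stat2, a signal transducer of the interferon receptor, rose by 0.88 ± 0.16 at day 3 (SE, adjusted p = 0.0068) and its log2 change under ruxolitinib was 0.04 ± 0.16 (adjusted p = 0.89), with a difference of 0.83 ± 0.22 that missed the threshold (adjusted p = 0.0508).

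Ifitm1, an interferon-induced membrane protein also known as a marker of early progenitors, went the other way from its list. It had 2.14, 5.13, 4.12 and 2.77 CPM at tamoxifen day 3, against 5.71, 1.99 and 1.4 CPM in vehicle A, and these overlapped. It had 39.5, 46.7 and 68.4 CPM under ruxolitinib, against 4.97, 1.91 and 1.08 CPM in vehicle C. The difference was -4.18 ± 0.78 (SE, adjusted p = 0.0115).

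**Figure D2:**
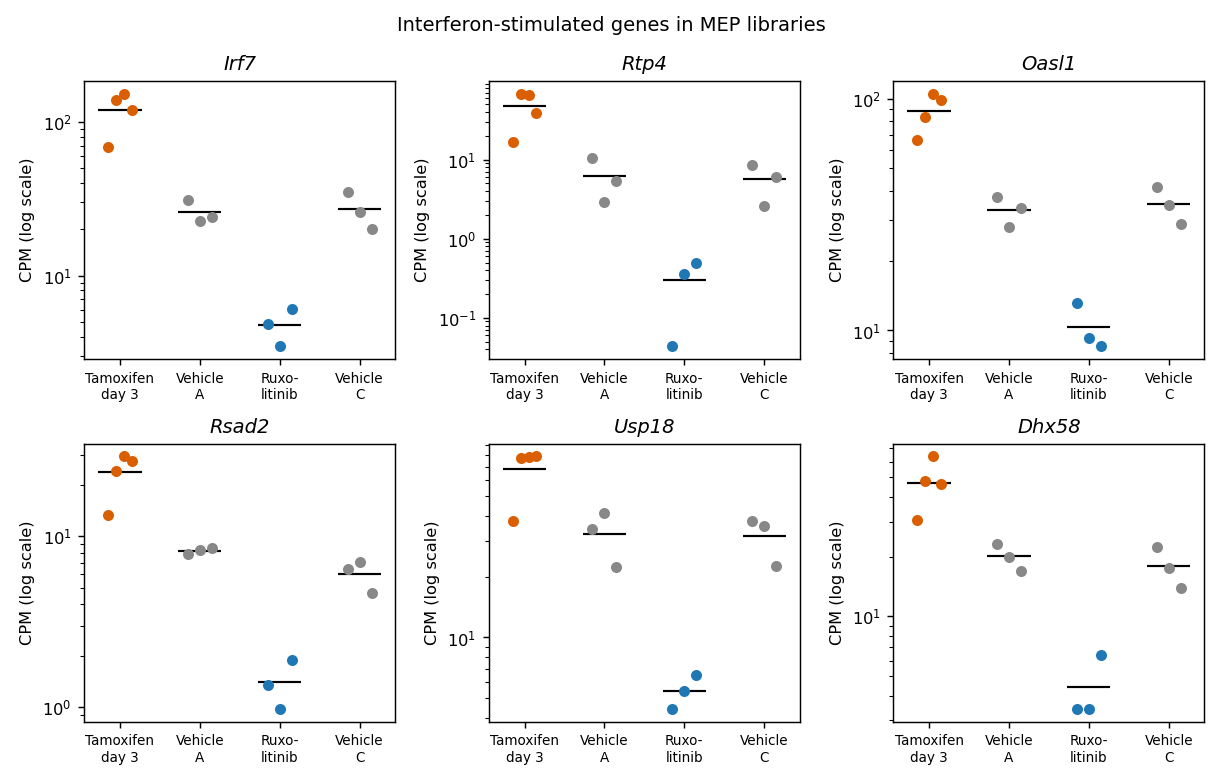
CPM on a log axis for Irf7, Rtp4, Oasl1, Rsad2, Usp18 and Dhx58, a point per library and a line at the group mean, in tamoxifen day 3 (4 libraries), vehicle A, ruxolitinib and vehicle C (3 each). The 2 vehicle groups overlap in all panels except that of Rsad2, while ruxolitinib libraries lie below vehicle C in every panel and tamoxifen day 3 libraries lie above vehicle A in all panels except that of Usp18, whose lowest library is at 37.7 CPM.

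At tamoxifen day 7 the log2 changes of Irf7 and Rtp4 over vehicle A were 2.25 ± 0.28 and 3.52 ± 0.62 (SE, adjusted p = 2.18e-05 and 0.00048). Of the 37 list members, 24 rose at day 7, when 15.6% of all genes rose. Ruxolitinib was also labelled day 7, so for this list the opposite direction was seen beside the deletion libraries of that day too, without a test of that contrast. The vehicle groups differed little for Irf7, Rtp4 and Oasl1 and more for some other called members. The log2 level of vehicle C minus vehicle A was 0.07 for Irf7, -0.12 for Rtp4 and 0.09 for Oasl1. It was -0.43 for Rsad2, whose vehicle groups did not overlap, -0.46 for Oas3, -0.56 for Trim30a, -0.85 for Parp14 and -1.03 for Ddx58. The median over the 37 list members was -0.115, beside -0.0115 over all genes.

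The promoters of these genes are shown because IRF9 and STAT2 are known to bind elements built on the core GAAANNGAAA. Promoters from RefSeq (GRCm38.p6, 250 bases before to 50 bases after the annotated start) were searched for this core on both strands. It was found in 7 of the 11 called genes with a promoter sequence (63.6%), in 15 of the 30 tested list members with a sequence (50%), and in 219 of 5672 tested genes (3.86%). Of all 32851 promoters, 3.44% held it. A match is a description of letters and not a shown binding site. Irf7, Oasl1, Xaf1 and Irf9 had no match in this window. Those of Rsad2, at chr12:26456403-26456702 on the minus strand, Oas3, at chr5:120777610-120777909 on the minus strand, and Oas1a, at chr5:120907476-120907775 on the minus strand, follow 5′ to 3′. Capitals mark the matches, which begin 120 bases before the start in Rsad2 on the opposite strand, 75 before in Oas3, and 20 and 14 before in Oas1a, where both overlap.
Rsad2: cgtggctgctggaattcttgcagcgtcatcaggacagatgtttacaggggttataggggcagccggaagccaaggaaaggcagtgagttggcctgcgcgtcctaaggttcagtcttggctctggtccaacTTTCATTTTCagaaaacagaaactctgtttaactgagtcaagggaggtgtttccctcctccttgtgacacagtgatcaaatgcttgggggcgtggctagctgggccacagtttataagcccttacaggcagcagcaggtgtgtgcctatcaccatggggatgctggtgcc
Oas3: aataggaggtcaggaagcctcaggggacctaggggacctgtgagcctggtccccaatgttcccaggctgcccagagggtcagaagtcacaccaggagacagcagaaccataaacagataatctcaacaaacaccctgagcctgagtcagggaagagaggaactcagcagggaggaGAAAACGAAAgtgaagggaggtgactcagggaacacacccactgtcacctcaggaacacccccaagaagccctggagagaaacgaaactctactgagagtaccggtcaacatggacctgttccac
Oas1a: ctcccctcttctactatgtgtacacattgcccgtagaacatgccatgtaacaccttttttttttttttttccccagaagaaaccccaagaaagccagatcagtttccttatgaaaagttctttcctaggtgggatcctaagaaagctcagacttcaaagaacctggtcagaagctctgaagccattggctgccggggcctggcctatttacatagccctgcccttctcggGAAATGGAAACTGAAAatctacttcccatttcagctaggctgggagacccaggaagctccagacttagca

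Some genes of megakaryocytes, granulocyte progenitors and early progenitors rose under ruxolitinib and were not called higher at tamoxifen day 3. Of 39 megakaryocyte and platelet genes 8 passed the CPM minimum, and 4 of these, among them Plek and Pf4, passed only through the ruxolitinib libraries. The rule for testing thus selected members that were high there, and the counts for these lists are a description. Under ruxolitinib 3 of the 8 rose, when 2.6% of all genes rose. The difference was called lower for 2, Itga2b and Plek (25%, against 1.36% of all genes), with 1 to 4 calls when a library was left out. At day 3, 0 of the 8 were called in edgeR, in DESeq2 or in voom, and 0 had an unadjusted p under 0.05. Of 11 tested stem cell markers 4 rose under ruxolitinib. The difference was called lower for Ctla2a, Ifitm1 and Meis1 (27.3%), all 3 of which passed only through ruxolitinib. So did Mpo, the granulocyte and monocyte progenitor marker called lower among 4 tested (25%).

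Itga2b encodes the platelet integrin CD41. It had 17.5, 20, 17.4 and 19.9 CPM at tamoxifen day 3, against 24.7, 10.3 and 10.5 CPM in vehicle A. It had 70.1, 97.8 and 125 CPM under ruxolitinib, against 16.5, 5.35 and 6.73 CPM in vehicle C. The day 3 and vehicle A libraries overlapped, whereas every ruxolitinib library exceeded every vehicle C library, and the difference was -3.18 ± 0.55 (SE, adjusted p = 0.00799).

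Plek, which encodes the platelet protein pleckstrin, had 0.961, 2.34, 1.81 and 1.1 CPM at tamoxifen day 3, against 8.56, 1.37 and 1.06 CPM in vehicle A. Under ruxolitinib it had 18.3, 28.3 and 61.3 CPM, against 6.34, 1.74 and 1.18 CPM in vehicle C. The vehicle library with number 12 was the highest of each vehicle group. The difference was -4.89 ± 1.09 (SE, adjusted p = 0.0257), and -3.31 without vehicle A replicate 1, where it was no longer called (adjusted p = 0.0726). The call was also lost without tamoxifen replicate 4, ruxolitinib replicate 2 or ruxolitinib replicate 3, at -4.75, -5.04 and -4.34 (adjusted p = 0.0568, 0.0585 and 0.0502). Pf4, platelet factor 4, had a difference of -3.90 ± 1.05, just short of the threshold (SE, adjusted p = 0.0506).

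Mpo, the myeloperoxidase of granulocyte progenitors, had 2.92, 4.31, 4.46 and 6.82 CPM at tamoxifen day 3, against 3.03, 4.53 and 5.69 CPM in vehicle A. It had 16.3, 79.9 and 75 CPM under ruxolitinib, against 2.44, 3.42 and 0.605 CPM in vehicle C. The difference was -4.77 ± 0.84 (SE, adjusted p = 0.00835). Meis1, a homeobox factor of stem cells and megakaryocyte progenitors, averaged 6.67 ± 2.61 CPM at tamoxifen day 3 and 7.33 ± 1.07 CPM in vehicle A, and 32.4 ± 15.9 CPM under ruxolitinib and 4.45 ± 3.58 CPM in vehicle C (SD, n = 4, 3, 3 and 3). Its difference was -3.12 ± 0.66 (SE, adjusted p = 0.0221).

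Ctla2a, a cysteine protease inhibitor, and Tmsb4x, thymosin beta 4, which binds monomeric actin, fell at day 3 and rose under ruxolitinib. Ctla2a had 1.85, 0.944, 1.93 and 1.57 CPM at tamoxifen day 3, against 14.2, 3.82 and 5.59 CPM in vehicle A. It had 22.7, 29.9 and 42.1 CPM under ruxolitinib, against 12.7, 3.03 and 5.8 CPM in vehicle C. Its difference was -4.57 ± 0.73 (SE, adjusted p = 0.00623). Tmsb4x had 9.72, 15.1, 14.2 and 12.7 CPM at tamoxifen day 3, against 44.7, 29.4 and 39.4 CPM in vehicle A. It had 67.6, 106 and 149 CPM under ruxolitinib, against 33.1, 27.5 and 28.7 CPM in vehicle C. Its groups did not overlap in either arm, and the difference was -3.51 ± 0.35 (SE, adjusted p = 0.000361). At tamoxifen day 7 both genes were higher than in vehicle A. The log2 changes were 2.59 ± 0.52 for Ctla2a and 2.16 ± 0.30 for Tmsb4x (SE, adjusted p = 0.00135 and 5.88e-05). Their falls at day 3 were thus not seen at day 7, the day of the ruxolitinib label.

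Among the 12 largest negative differences were also Coro1a, the actin regulator coronin 1A, at -4.26, Gmfg, glia maturation factor gamma, at -3.36, Pkm2, the pyruvate kinase of glycolysis, at -3.69, and Tmem176b at -3.75. These 4 rose under ruxolitinib, by 3.58, 3.56, 2.15 and 2.89 on the log2 scale. At day 3 their changes were not called (adjusted p from 0.0934 for Pkm2 to 0.774 for Gmfg). Coro1a, Gmfg and Tmem176b averaged under 10 CPM in each other group, so they passed the CPM minimum only through the ruxolitinib libraries. The rule for testing thus selected these genes as high there, and their rises are a description. The calls of Coro1a, Pkm2 and Tmem176b were each lost without vehicle A replicate 1 (adjusted p = 0.0518, 0.053 and 0.0953) and without ruxolitinib replicate 2; Tmem176b lost it in 11 of 22 alternatives.

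Summed markers of other cell types are given beside these genes, and some were high under ruxolitinib while others were not. The sum of 5 megakaryocyte markers was 141 to 303 CPM under ruxolitinib and 22.1 to 64.2 CPM in vehicle C. It was 55.1 to 83.3 CPM at tamoxifen day 3 and 62.1 to 80.1 CPM in vehicle A. Itga2b, Pf4 and Plek were high under ruxolitinib, whereas Vwf averaged 26.3 CPM under ruxolitinib and 24.1 CPM in vehicle C. The sum of 6 granulocyte and monocyte progenitor markers was 28.1 to 105 CPM under ruxolitinib and 2.72 to 8.24 CPM in vehicle C, against 4.91 to 12.6 CPM at tamoxifen day 3 and 6.15 to 9.4 CPM in vehicle A. The sum of 4 mast cell and basophil markers was 8.63 to 30.8 CPM under ruxolitinib and 2.27 to 5.91 CPM in vehicle C, against 5.5 to 10.5 CPM at tamoxifen day 3 and 8.95 to 15.4 CPM in vehicle A. The sum of 5 stem cell markers of LSK cells was 3.64 to 7.05 CPM under ruxolitinib and 4.56 to 12.6 CPM in vehicle C, which overlapped, and 12.5 to 27.7 CPM at tamoxifen day 3 and 13.1 to 26.1 CPM in vehicle A. Among these Mecom averaged 1.68 CPM under ruxolitinib and 3.4 CPM in vehicle C. Mature neutrophil markers summed to 0.306 to 0.501 CPM under ruxolitinib and 0.857 to 3.89 CPM in vehicle C, with 4.73 to 17.2 CPM at tamoxifen day 3 and 4.28 to 8.34 CPM in vehicle A. The ruxolitinib libraries were all below those of vehicle C for this sum, and the tamoxifen and vehicle A libraries overlapped. Macrophage markers summed to 3.2 to 7.7 CPM under ruxolitinib and 2.47 to 5.63 CPM in vehicle C, and lymphoid markers to 2.14 to 6.02 CPM under ruxolitinib and 1.69 to 4.62 CPM in vehicle C. At tamoxifen day 3 macrophage markers summed to 7.2 to 12.4 CPM, against 4.67 to 14 CPM in vehicle A. No marker of these lists was at 0 in all libraries of a group. Whether a changed makeup of the sorted cells had a part in the result was not tested. At tamoxifen day 7 Itga2b, Plek and Ifitm1 had log2 changes of 3.50 ± 0.43, 4.29 ± 0.84 and 3.90 ± 0.58 over vehicle A (SE, adjusted p = 1.81e-05, 0.00113 and 0.000108). These 3 genes were thus called at day 7 and not at day 3, and the difference between the days was not tested. Of the tested megakaryocyte and platelet genes, 7 of 8 rose at day 7, when 15.6% of all genes rose. So did 8 of 11 stem cell markers, with 1 lower, and 3 of 4 granulocyte and monocyte progenitor markers. Mpo, Meis1, Coro1a, Gmfg and Tmem176b were called higher at day 7, and Pkm2 was not (adjusted p = 0.155).

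**Figure D3:**
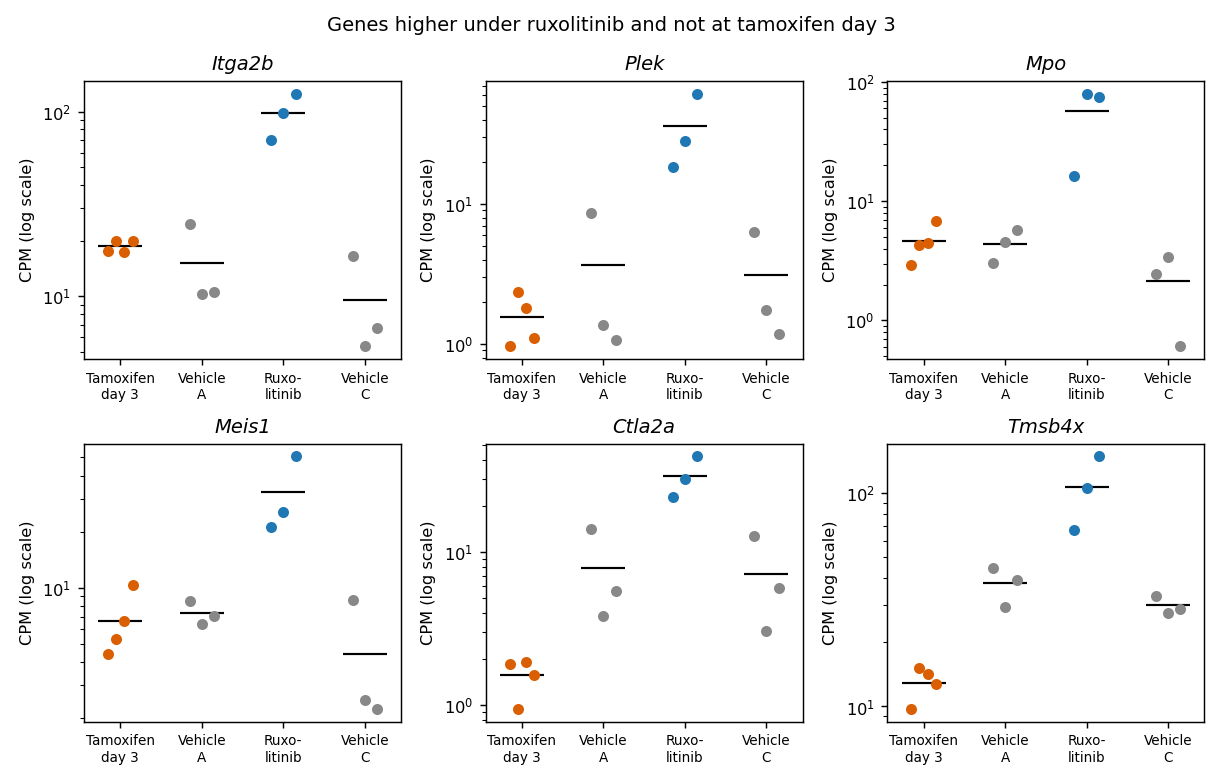
CPM on a log axis for Itga2b, Plek, Mpo, Meis1, Ctla2a and Tmsb4x, a point per library and a line at the group mean, in tamoxifen day 3 (4 libraries), vehicle A, ruxolitinib and vehicle C (3 each). The ruxolitinib libraries lie above every vehicle C library in each panel, while tamoxifen day 3 libraries lie below vehicle A for Ctla2a and Tmsb4x and among or near its libraries for the others.

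Several STAT5 targets fell in both arms, and Podxl fell further after deletion. Of 30 STAT5 and cytokine-induced targets, 16 passed the CPM minimum. At tamoxifen day 3, 6 fell (3.1% of all genes fell), and under ruxolitinib 6 fell (7.52% of all genes) and 1 rose. Without ruxolitinib replicate 1, 3 fell under ruxolitinib. The difference was called lower for 2, Podxl and Ccnd2, beside 1.36% of all genes, and for 4 without vehicle C replicate 1 and in voom. The median difference was -0.0891, beside 0.0314 for all genes.

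Podxl, the sialomucin podocalyxin of early erythroid progenitors, had 1.15, 1.03, 0.832 and 2.34 CPM at tamoxifen day 3, against 32.9, 55.1 and 37.7 CPM in vehicle A. It had 23.7, 21.7 and 27.1 CPM under ruxolitinib, against 75.6, 129 and 59.1 CPM in vehicle C. Neither arm overlapped its vehicle, and the vehicle groups did not overlap each other. The log2 change was -5.01 ± 0.37 at day 3 and -1.78 ± 0.35 under ruxolitinib, with a difference of -3.23 ± 0.49 (SE, adjusted p = 0.00424). At day 7 the change was -4.45 ± 0.40. B3gnt7, a glycosyltransferase, averaged 1.03 ± 0.792 CPM at tamoxifen day 3 and 26.5 ± 13.3 CPM in vehicle A, and 9.7 ± 0.635 CPM under ruxolitinib and 30.1 ± 12.8 CPM in vehicle C (SD, n = 4, 3, 3 and 3). Its difference was -3.20 ± 0.71 (SE, adjusted p = 0.0248), and it was not called without vehicle A replicate 2 or ruxolitinib replicate 2 (adjusted p = 0.0537 and 0.0669). Ccnd2, the G1 cyclin D2, had 64.3, 109, 109 and 92.8 CPM at tamoxifen day 3, against 338, 218 and 260 CPM in vehicle A. It had 262, 293 and 317 CPM under ruxolitinib, against 407, 283 and 312 CPM in vehicle C, where the groups overlapped. The difference was -1.46 ± 0.28 (SE, adjusted p = 0.0133), and the day 7 change of -0.29 ± 0.20 did not pass (adjusted p = 0.272).

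Gm17004 had the largest negative difference of all, -7.78 ± 0.68 (SE, adjusted p = 2e-04). The naming rule passes over such symbols, and it was chosen after its values were seen. The RefSeq gene table lists it as a synonym of Trgc1, a T cell receptor gamma constant segment, whose locus is a known STAT5 target in lymphoid cells. It had 0.296, 0.205, 0 and 0.477 CPM at tamoxifen day 3, against 217, 156 and 97 CPM in vehicle A. It had 48.7, 37 and 75.4 CPM under ruxolitinib, against 230, 175 and 112 CPM in vehicle C. The summed level of 6 lymphoid markers was 5.87 to 16.7 CPM at tamoxifen day 3 and 5.32 to 7.18 CPM in vehicle A.

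Cish, the feedback inhibitor CIS and a classical STAT5 target, lay just under the CPM minimum with a mean of 9.75 CPM. It had 0.259, 0.903, 0.34 and 0.906 CPM at tamoxifen day 3, against 28.5, 19.9 and 14.7 CPM in vehicle A. It had 2.31, 1.19 and 1.59 CPM under ruxolitinib, against 27.7, 17.5 and 10.9 CPM in vehicle C. Both treated groups lay under every vehicle library. With edgeR's filterByExpr in place of the CPM minimum its difference was -2.003 ± 0.60 (SE, adjusted p = 0.0242), from -5.23 at day 3 and -3.22 under ruxolitinib. Under that filter the median difference of all genes was 0.98. Its promoter (RefSeq, GRCm38.p6, chr9:107296409-107296708, plus strand) is shown with matches to the STAT5 consensus TTCNNNGAA, which reads the same on both strands, in capitals. They begin at bases 1 and 12 after the start, and 8.3% of all promoters of this length hold at least 1 match.
Cish: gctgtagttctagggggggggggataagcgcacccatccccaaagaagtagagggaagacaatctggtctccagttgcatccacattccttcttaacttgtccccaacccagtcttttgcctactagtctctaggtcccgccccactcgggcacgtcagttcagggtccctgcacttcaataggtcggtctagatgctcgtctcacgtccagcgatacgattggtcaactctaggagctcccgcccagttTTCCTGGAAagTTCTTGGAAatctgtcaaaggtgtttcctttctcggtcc

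Osm, the cytokine oncostatin M, had 8.31, 15, 8.7 and 15.3 CPM at tamoxifen day 3, against 65.4, 40.9 and 44 CPM in vehicle A. It had 21.1, 23.9 and 21.2 CPM under ruxolitinib, against 59.8, 48.3 and 43.3 CPM in vehicle C. It fell in both arms, and its difference of -1.01 ± 0.36 was not called (SE, adjusted p = 0.121). Socs2, a feedback inhibitor of cytokine signalling, leaned the other way, with log2 changes of -1.21 ± 0.30 at day 3 and -2.29 ± 0.34 under ruxolitinib. Its difference, 1.08 ± 0.45, was not called either (SE, adjusted p = 0.183). Bcl2l1, which encodes the survival protein BCL-XL, had a difference of -0.65 ± 0.25 (SE, adjusted p = 0.147), and Myc had -0.05 ± 0.19 (SE, adjusted p = 0.898). Pim1, Id1 and Socs3 were under the CPM minimum, with means of 1.54, 0.553 and 0.305 CPM.

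Genes that changed the same way in both arms were chosen after their values were seen, as the 8 with the largest change in the weaker arm. The falls were Hbb-b1, a beta globin, Plek2, a pleckstrin paralog of red cells, Gab2, an adaptor below cytokine receptors, Irs2, the insulin receptor substrate, Cda, cytidine deaminase, and Fam124a. Gab2 averaged 2.29 ± 2.05 CPM at tamoxifen day 3 and 46.8 ± 10.1 CPM in vehicle A, and 10.2 ± 0.108 CPM under ruxolitinib and 50.6 ± 11.7 CPM in vehicle C (SD, n = 4, 3, 3 and 3). Its difference of -2.18 ± 0.80 was not called (SE, adjusted p = 0.133). The rises were Apoe, the lipid carrier apolipoprotein E, and Prss50, a testis protease. Apoe had 10.5, 203, 50.7 and 143 CPM at tamoxifen day 3, against 1.43, 4.94 and 4.67 CPM in vehicle A. It had 521, 337 and 430 CPM under ruxolitinib, against 8.49, 15.4 and 38.9 CPM in vehicle C. The vehicle C libraries were all above vehicle A for Apoe, and the difference of 0.32 ± 1.12 had a wide error (SE, adjusted p = 0.898).

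Among iron and red cell genes, shares of called differences lay near or under the 3.59% higher and 1.36% lower of all genes. Tfrc, the transferrin receptor, had 671, 459, 474 and 447 CPM at tamoxifen day 3, against 2970, 2710 and 2480 CPM in vehicle A. It had 441, 548 and 738 CPM under ruxolitinib, against 1820, 1620 and 2640 CPM in vehicle C. It fell in both arms, and the difference of -0.70 ± 0.29 was not called (SE, adjusted p = 0.185). Of 33 tested heme synthesis and iron genes, 0 were called for the difference in edgeR, 2 had an unadjusted p under 0.05, and DESeq2 and voom each called 1. Of 32 red cell membrane and differentiation genes, 1 was called higher (3.12%), Kel, which encodes the Kell blood group protein. Kel averaged 393 ± 34.9 CPM at tamoxifen day 3 and 345 ± 30.3 CPM in vehicle A, and 166 ± 7.46 CPM under ruxolitinib and 333 ± 20 CPM in vehicle C (SD, n = 4, 3, 3 and 3), a difference of 1.08 ± 0.15 (SE, adjusted p = 0.00277). Of 32 erythroid and megakaryocyte transcription factors, Nfia and Mafg were called higher (6.25%) and Meis1 lower (3.12%). The calls of Nfia and Mafg were lost in 9 and 15 of 22 alternatives. Of 25 JAK-STAT components and cytokine receptors, 0 were called for the difference in edgeR, 6 had an unadjusted p under 0.05, DESeq2 called 1 and voom called 2 higher and 1 lower. Of 21 cholesterol synthesis and uptake genes, 6 fell at day 3 (3.1% of all genes fell) and 4 under ruxolitinib (7.52% of all genes). Without ruxolitinib replicate 1 or 2, 0 fell under ruxolitinib. For their difference 0 were called in edgeR, DESeq2 or voom, and 4 had an unadjusted p under 0.05.

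Genes of serine and folate synthesis, on the list of ATF4 stress and amino acid genes, fell at day 3 without a called fall under ruxolitinib. Of 20 tested members (32 in the table) 7 were called lower for the difference (35%, against 1.36% of all genes). At day 3, 10 fell (3.1% of all genes fell), and under ruxolitinib 1 rose and 1 fell (2.6% and 7.52% of all genes). The 7 were Phgdh, Psat1 and Psph, the 3 enzymes of serine synthesis, Shmt2 and Mthfd2, mitochondrial enzymes of the folate cycle, and the transfer RNA synthetases Aars and Sars. Atf4, the transcription factor that induces such genes, fell by 0.73 on the log2 scale at day 3 (adjusted p = 0.00383) and its difference of -0.61 was not called (adjusted p = 0.0588).

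Phgdh had 267, 278, 287 and 331 CPM at tamoxifen day 3, against 525, 401 and 466 CPM in vehicle A. It had 792, 776 and 661 CPM under ruxolitinib, against 553, 416 and 443 CPM in vehicle C. The groups did not overlap in either arm, lower at day 3 and higher under ruxolitinib, and the difference was -1.45 ± 0.19 (SE, adjusted p = 0.00209). Mthfd2 had 81.7, 71.4, 85.3 and 80.7 CPM at tamoxifen day 3, against 212, 311 and 246 CPM in vehicle A. It had 176, 173 and 183 CPM under ruxolitinib, against 191, 261 and 244 CPM in vehicle C. Every ruxolitinib library was thus below every vehicle C library, though the log2 change of -0.29 ± 0.16 was not called (SE, adjusted p = 0.247). The difference of Mthfd2 was -1.41 ± 0.21 (SE, adjusted p = 0.00424), carried by the day 3 fall of 1.70 on the log2 scale. Psat1 and Shmt2 had differences of -1.17 ± 0.19 and -1.11 ± 0.19 (SE, adjusted p = 0.00582 and 0.0076). At day 7 the changes over vehicle A were -0.51 for Phgdh, -2.60 for Mthfd2, -0.89 for Psat1 and -0.83 for Shmt2, all called.

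Other growth and energy lists leaned the same way with few calls. Of 65 nuclear oxidative phosphorylation genes, 6 were called lower for the difference (9.23%, against 1.36% of all genes). This count was 2 without tamoxifen replicate 2 or 4 or vehicle A replicate 3 and with the replicate block, 3 without tamoxifen replicate 3, vehicle A replicate 1 or 2 or ruxolitinib replicate 2, and 14 in voom. Ndufa5 and Ndufv2, subunits of complex I, lost the call in 9 and 6 of 22 alternatives. Of the 65 genes, 52 (80%) were negative at day 3 and positive under ruxolitinib, against 23% of all genes. Among the 6, Cycs, which encodes cytochrome c, averaged 225 ± 23.3 CPM at tamoxifen day 3 and 317 ± 36.2 CPM in vehicle A, and 389 ± 28.1 CPM under ruxolitinib and 306 ± 32.7 CPM in vehicle C (SD, n = 4, 3, 3 and 3). Its difference was -0.95 ± 0.16 (SE, adjusted p = 0.00777). Uqcrc1, a core subunit of complex III, had -0.93 (adjusted p = 0.00777). Other lists had 4 of 46 ribosome biogenesis genes called lower (8.7%, among them Hspe1, a mitochondrial chaperonin, and Nop10) and 4 of 37 proteasome subunits (10.8%). Also called lower were 2 of 18 glycolysis genes (11.1%, Pgam1 and Eno1) and 1 of 80 cytosolic ribosomal proteins (Rpl39). The last is 1.25%, close to the 1.36% of all genes. The proteasome calls were Psma2, Psma4, Psmd6 and Psma1, and the last 3 were lost in 15, 17 and 19 of 22 alternatives. Leaving out a library gave 0 proteasome calls (without vehicle A replicate 3 or ruxolitinib replicate 2) to 6 (without vehicle C replicate 3), 2 to 7 for ribosome biogenesis and 1 to 3 for glycolysis. For ribosomal proteins it gave 0 to 19, the highest without vehicle C replicate 2. The ribosomal protein median was -0.127 at day 3 and 0.464 under ruxolitinib. Some of these lists hold short genes. Median exonic length was 1831 bases for oxidative phosphorylation, 1805.5 for ribosomal proteins and 2808 for the proteasome, against 4639 for all genes. It was 3501.5 for ribosome biogenesis and 4279.5 for glycolysis. With an offset for exonic length and GC content the oxidative phosphorylation median difference was -0.185 with 3 calls, in place of -0.483 with 6. The ATF4 list kept a count of 7 and the interferon list a count of 16 with that offset. Of 38 mitosis and spindle genes, 2 were called higher, Cenpf and Cenpe (5.26%, against 3.59% of all genes). Of 49 DNA replication genes 1 was called lower, Pold2 (2.04%, against 1.36% of all genes). The calls of Cenpf, Cenpe, Pold2 and Rpl39 were lost in 3, 8, 19 and 15 of 22 alternatives, and Eno1 was lost without vehicle A replicate 1 or ruxolitinib replicate 2.

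**Figure D4:**
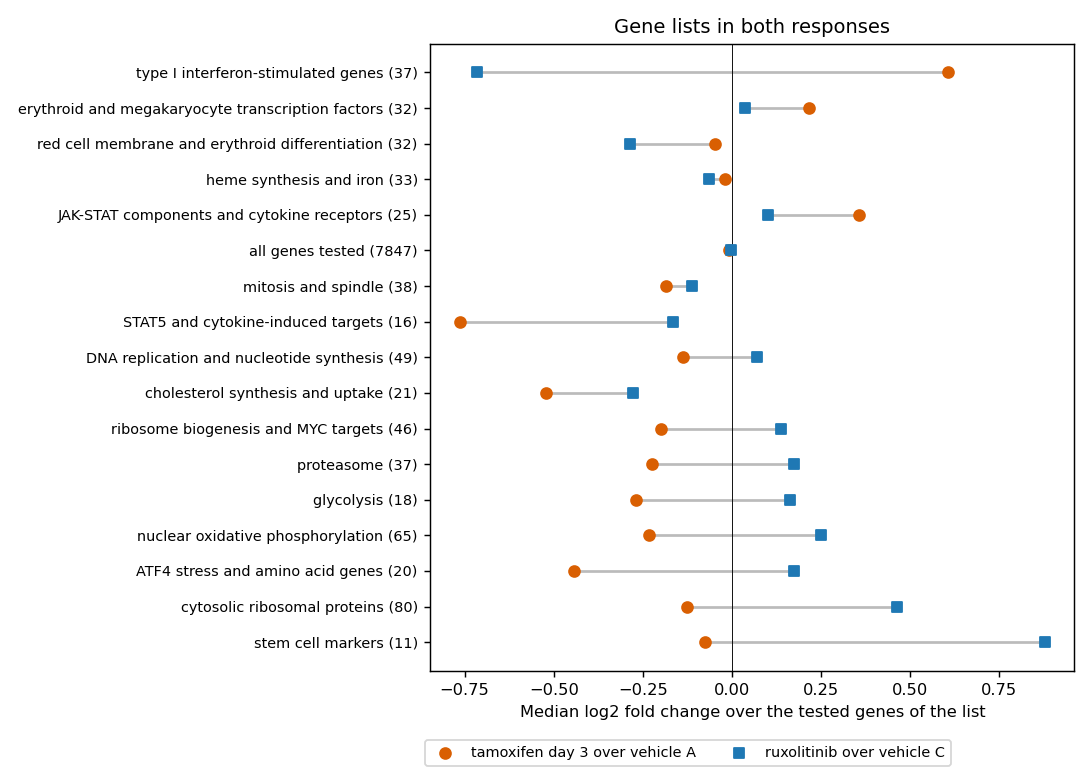
Median log2 fold change over the tested genes of each list (number in brackets) at tamoxifen day 3 over vehicle A (circles) and under ruxolitinib over vehicle C (squares), for lists with at least 10 tested genes and for all 7847 genes. The interferon-stimulated list lies at 0.605 and -0.716, the ATF4 list at -0.442 and 0.174, and all genes near 0 in both; 4 of the 11 stem cell markers passed the CPM minimum only through ruxolitinib.

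Among the 12 largest positive differences, 6 belonged to very long genes at low levels. Lrp2, Ank3, Zan, Odz4, Neb and Syne2 hold 16701 to 34838 exonic bases. All 6 averaged under 10 CPM both under ruxolitinib and in vehicle C. They thus passed the CPM minimum only through the tamoxifen day 3 and vehicle A libraries, where they were high, and their place here is a description. Lrp2, the endocytic receptor megalin, had 11.9, 19.9, 14.8 and 32.6 CPM at tamoxifen day 3, against 11.4, 16.4 and 20.2 CPM in vehicle A. It had 0.806, 0.433 and 0.0745 CPM under ruxolitinib, against 6.6, 9.64 and 2.47 CPM in vehicle C. The difference was 3.98 ± 0.85 (SE, adjusted p = 0.0221), and vehicle C minus vehicle A gave -1.35. Neb, which encodes the muscle protein nebulin, had a difference of 3.32 ± 0.56 (SE, adjusted p = 0.00777) and Ank3, ankyrin G, 3.49 ± 0.90 (SE, adjusted p = 0.0423). With the length and GC offset the calls of all 6 were lost, at differences of 2.29 (Syne2) to 3.35 (Lrp2) and adjusted p from 0.05 (Lrp2) to 0.145 (Ank3). With odorant receptor background subtracted all 6 kept the call. Ank3, Zan, Odz4 and Syne2 also lost it in voom with the shared number as random block (adjusted p = 0.0644, 0.0925, 0.114 and 0.0621). Ank3 and Odz4 lost it in 13 and 14 of 22 alternatives, Zan and Syne2 in 6 each, Lrp2 in 4 and Neb in the offset alone.

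The same lean ran through the whole table. Genes called higher for the difference had a median exonic length of 10055 bases, those called lower 2760 bases, and uncalled genes 4593 bases. Over 4 equal bins of exonic length, shortest to longest, the median difference was -0.235, -0.033, 0.101 and 0.366, and the share called higher was 1.19, 1.39, 2.17 and 9.39%. The median change under ruxolitinib was 0.179 in the shortest bin and -0.264 in the longest, and that at day 3 was -0.114 and 0.0663. Counts on 1675 odorant and pheromone receptor genes, which these cells are not known to use, moved alongside. They took 0.0373 to 0.0823% of counts at tamoxifen day 3 and 0.0381 to 0.0665% in vehicle A, but 0.00131 to 0.00421% under ruxolitinib and 0.00909 to 0.0321% in vehicle C. The part of background reads in the long-gene differences was not tested. With the offset 148 genes were called higher and 124 lower (54.4% higher, in place of 72.5%), and 168 genes were shared with the 389.

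**Figure D5:**
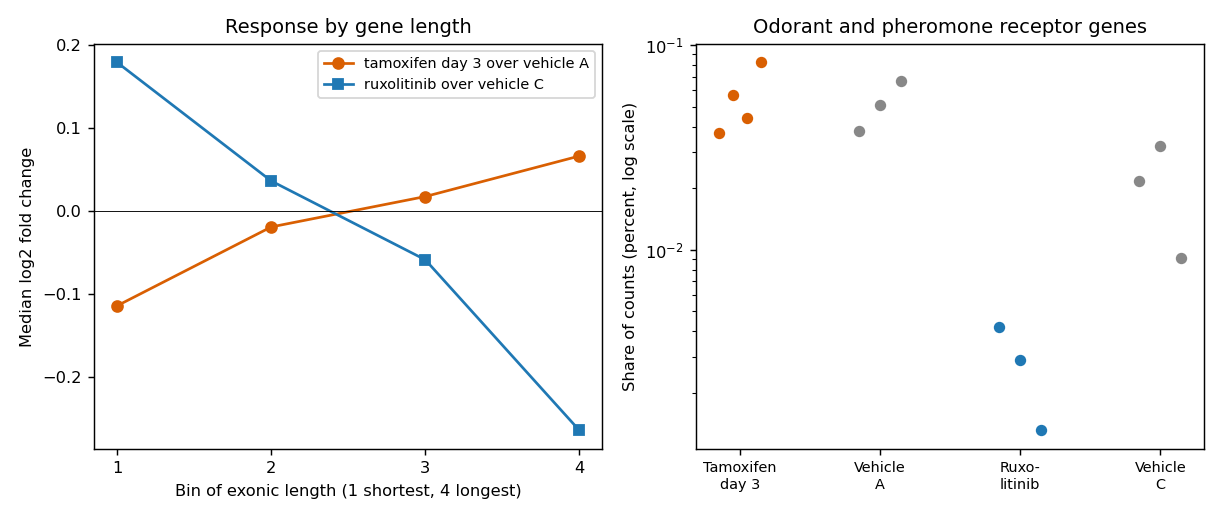
Left, median log2 fold change by bin of exonic length (4 bins of about equal size) at tamoxifen day 3 over vehicle A (circles) and under ruxolitinib over vehicle C (squares), running to 0.0663 and -0.264 in the longest bin. Right, percent of all counts on odorant and pheromone receptor genes per library on a log axis, where the 3 ruxolitinib libraries lie lowest, at 0.00131 to 0.00421%.

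The 19 genes called in opposite directions in the single responses all had a called difference. They made up 0.178% (14 genes, up at day 3) and 0.0637% (5 genes, down at day 3) of those tested. Beside Rtp4, Irf7, Xaf1, Rsad2, Oasl1, Dhx58, Parp9 and Ifih1, the 14 held Ifi27l1, an interferon-induced mitochondrial protein, Trim25, the ubiquitin ligase that activates RIG-I, Slc38a9, the lysosomal arginine sensor, and Slk, Akap9 and Atxn7l1. Ifi27l1 averaged 136 ± 15 CPM at tamoxifen day 3 and 73.3 ± 4.88 CPM in vehicle A, and 36 ± 9.6 CPM under ruxolitinib and 75 ± 1.87 CPM in vehicle C (SD, n = 4, 3, 3 and 3). Its difference was 1.84 ± 0.22 (SE, adjusted p = 0.00186). Akap9, with 21350 exonic bases, lost its call with the length and GC offset (adjusted p = 0.0588). The 5 that fell at day 3 and rose under ruxolitinib were Ctla2a, Tmsb4x, Phgdh, Cycs and Tomm5, a subunit of the mitochondrial import channel. The difference of Tomm5 was -0.99 ± 0.15 (SE, adjusted p = 0.00403) and was not called with the offset (adjusted p = 0.166). At tamoxifen day 7 Ctla2a and Tmsb4x were called higher than vehicle A, whereas Phgdh, Cycs and Tomm5 were called lower. Of the 14, Trim25 was called lower at day 7 (log2 change -0.36, adjusted p = 0.0424) and Akap9 was not called. The others were called higher.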

How the data were processed

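Gene counts of 13 MEP libraries were analysed. Per the labels' protocols, RNA of cells sorted in TriZOL was purified by Direct-Zol and made into paired-end Takara libraries. The submitters' processing notes name STAR, featureCounts and the mm10 build, and the file the authors deposited holds raw counts by gene symbol. The sources used here do not give tool versions, annotation, strand setting or the treatment of multiply aligned reads, so overlapping, antisense and near-identical genes can share reads. Depth ran from 20.7 to 55.5 in units of 1e6 counts.

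CPM were counts scaled to a library total of 1e6. Genes with a mean of at least 10 CPM over the 13 libraries were fitted with edgeR 4.0.16 (R 4.3.3), TMM factors, a mean per group and 9 residual degrees of freedom, two-sided. The test was checked on simulated data. Exonic lengths are from GENCODE M21 (7757 of 7847 genes matched) and promoters from RefSeq. Alternatives were RLE factors, DESeq2 1.42.0, filterByExpr at 10 counts, no filter, all 16 MEP libraries, the replicate block, limma 3.58.1 voom with the shared number as random block, and leaving out each library. A length and GC offset and a subtraction of background scaled from odorant receptor counts were chosen after seeing the data. The members and lists were chosen with earlier results of these data known.

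Vehicle A and vehicle C libraries carry the same numbers in the labels, 12, 32 and 33. Deviations from the group means correlated at 0.394 to 0.718 within these numbers, so they were treated as pairs in the voom fit, which had a consensus correlation of 0.487. Libraries of a group differed by more than sampling noise. Shared litters or sorting days are not stated in the labels, so p-values measure the spread between these libraries.

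Genes named were Jak2, the 12 largest positive and 12 largest negative called differences with a gene name, a panel of STAT5 targets, up to 4 members per list by p, and up to 8 genes called in opposite directions. Other names were chosen after their values were seen: the remaining opposite genes, the remaining called interferon genes, the other members of lists given with a value, the shared genes and Gm17004. Just inside the CPM minimum were Trim16 (10.01 CPM) and Wdr25 (10.02 CPM), just outside C430048L16Rik (9.995 CPM) and Polr3gl (9.993 CPM). Some genes are not reported here.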

Additional observations from a re-analysis of the deposited data

Results flagged for a closer look

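Among the 4 tamoxifen day 3 libraries, 121 genes named or listed were checked for a library standing apart from the other 3, and 8 had one; chance gives about 1 in 20. A library stood low for Usp18 (37.7 CPM), Gmfg (4.4 CPM), Mafg (67 CPM) and Rpl15 (462 CPM). A library stood high for Id1 (0.906 CPM), Tfrc (671 CPM), Nfia (176 CPM) and Prss50 (53.4 CPM). The low values of Usp18 and Gmfg and the high values of Tfrc and Nfia belong to replicate 1, which also had the lowest values of Irf7 (69.2 CPM), Rtp4 (16.5 CPM) and Rsad2 (13.3 CPM).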

How the results depend on the processing

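The count of called differences, 389, was 401 with RLE factors, 518 with all 16 MEP libraries, 351 with odorant receptor background subtracted, 272 with the length and GC offset, 712 in DESeq2 and 864 in voom. Day 3 calls, 554, were 1054 in DESeq2, 838 with the offset and 271 with filterByExpr. Ruxolitinib calls, 794, were 1213 in DESeq2. Without the CPM minimum, low genes fell together under ruxolitinib: filterByExpr called 5691 differences (94.4% higher, median 0.98) and 9876 ruxolitinib changes, and no filter 5620 and 10238. The cause was not tested. Leaving out each library gave 118 to 515 differences, 182 to 1080 day 3 calls and 249 to 1175 ruxolitinib calls. For the difference these were 197, 208 and 190 without tamoxifen replicates 2, 3 and 4, 191, 229 and 183 without vehicle A replicates 1, 2 and 3, and 226 and 118 without ruxolitinib replicates 1 and 2. For day 3 they were 214, 304 and 223 without tamoxifen replicates 2, 3 and 4, 226 and 182 without vehicle A replicates 1 and 3, and 1080 without vehicle C replicate 3. For ruxolitinib they were 340 and 249 without ruxolitinib replicates 1 and 2. Fewer libraries also leave fewer degrees of freedom.

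The replicate block gave 196 differences. Its replicate numbers correlated at -0.34 to 0.718 over 18 pairs and share only a number. Of 117 named genes followed, 69 were called, 33 of them under every alternative, and 113 kept their direction. The exceptions were uncalled differences. With the replicate block Myc was 0.002353 and Apoe -0.5686, in voom Apoe was -0.5051 and Prss50 -0.2674, and with the offset Myc was 0.1158. Leaving out each library, Myc ran from -0.2071 to 0.0588, Apoe from -0.4846 to 0.6995, Prss50 from -0.8204 to 0.8378 and Hbb-b1 from -1.95 to 0.9138. Depth limits genes under the CPM minimum, such as Id1 and Socs3.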
